A study of Mus musculus with 8 samples.

Results

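Proteasome genes were examined in mouse pMF-HSCs (primary cultures of myofibroblastic hepatic stellate cells) after inhibition of O-GlcNAc transferase (OGT), the enzyme that attaches the sugar O-GlcNAc to nuclear and cytosolic proteins. A gene was included when its symbol was that of a proteasome subunit, activator or assembly chaperone (Psma, Psmb, Psmc, Psmd, Psme, Psmf or Psmg followed by a number), or when it was Adrm1, Pomp, Nfe2l1, Ddi2 or Ngly1. The symbols gave 53 of the 40840 genes in the expression tables, and the rule itself uses no measured value. Stellate cells store retinoids in the healthy liver and turn into matrix-producing myofibroblasts on plastic. Here they were sorted from livers of male wild-type C57BL/6J mice aged 15 to 18 weeks and cultured for 7 days, so both groups describe culture-activated cells outside the liver. The control group received the vehicle DMSO (n = 4), the OGTi group received OSMI-1, a small-molecule OGT inhibitor, at 50 µM for 24 h (n = 4), and libraries with the same replicate number were treated as a pair.

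The proteasome is the protease that degrades ubiquitin-tagged proteins. Its 20S core is a barrel of alpha rings, which gate the entrance, and beta rings, which hold the catalytic subunits Psmb5, Psmb6 and Psmb7. The 19S cap binds and unfolds substrates with a ring of ATPases (Psmc genes) and a set of non-ATPase subunits (Psmd genes and Adrm1). Interferon-gamma exchanges the catalytic subunits for Psmb8, Psmb9 and Psmb10, which form the immunoproteasome of antigen processing. When proteasome activity is short, the transcription factor NRF1 (gene Nfe2l1) raises proteasome subunit genes together. NRF1 starts as a glycoprotein of the endoplasmic reticulum, is deglycosylated by Ngly1, is cleaved by the protease Ddi2, and binds antioxidant response elements in partnership with small MAF proteins. OGT and its partner HCF-1 (gene Hcfc1) are known regulators of NRF1 protein stability.

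The 8 libraries held 30068876 to 37372420 expected counts (read numbers that RSEM estimates per gene), and all 53 genes were detected in each library. The 10 most abundant genes took 6.73% to 7.76% of counts in control libraries and 10.9% to 15.8% in OGTi libraries, with no overlap. Scaled counts below are expected counts brought to a common library size with TMM factors, which were 1.04 to 1.11 in control and 0.874 to 1.06 in OGTi libraries. Stellate and myofibroblast markers were all detected (10 of 10, summed TPM of 2612 to 4409 in control and 2642 to 3682 in OGTi libraries), of which Lrat (log2 fold change -1.78, adjusted p = 0.00232) and Pdgfrb (-1.68, 0.00154) fell. Hepatocyte markers summed to 0.11 to 0.56 TPM in control and 0.57 to 1.69 in OGTi, and endothelial ones to 0.71 to 1.55 and 0.28 to 0.87. At these trace levels Cyp2e1 was called higher (adjusted p = 0.00591) and Lyve1 lower (adjusted p = 0.0340). The macrophage and leukocyte list summed to 19.3 to 37.1 TPM in control and 30.7 to 71.9 in OGTi libraries. Its most abundant genes were Cd68, a lysosomal protein gene that rose (from a mean of 22.8 to 50.6 TPM, adjusted p = 0.00154), and Csf1r (4.89 and 3.87 TPM, not called), while the defining gene Adgre1 averaged 0.28 and 0.21 TPM. Adgre1 had 0, 0, 61 and 10 raw counts in control replicates 1 to 4 and 0, 2, 47 and 7 in OGTi. C1qa (not called) had 0, 0, 103 and 30 in control and 0, 2, 42 and 17 in OGTi. Reads of these 2 genes thus lay mostly in replicates 3 and 4, whereas Cd68 and Csf1r had reads in all 8 libraries. The cholangiocyte list summed to 87.3 to 141 TPM in control and 57.2 to 84.1 in OGTi libraries. Its most abundant gene Krt19 fell from a mean of 118 to 59.8 TPM (adjusted p = 0.0462), while Sox9 rose to a mean of 10.9 TPM (log2 fold change 3.03, adjusted p = 0.00859). The part of these lists in the results below was not tested. In such bulk libraries, fewer cells of a type and less RNA per cell cannot be told apart.

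Most proteasome genes did not pass the test after 24 h of OGTi. Of the 53 genes, Psmc6 and Psmd4 of the 19S cap rose, the immunoproteasome subunits Psmb8 and Psmb10 fell, and 49 were not called (edgeR's quasi-likelihood test with Benjamini-Hochberg adjustment over 19963 genes, adjusted p of at most 0.05). Of all genes tested, 8.13% were called higher and 10.2% were called lower, so the 2 calls in each direction were a smaller share than in the transcriptome. By scaled counts alone, the groups did not overlap for 8 of the genes on the higher side (Psma7, Psmb3, Psmc6, Psmd4, Psmd8, Psmd13, Psme3 and Psme4) and for 2 on the lower side (Psmb8 and Psmb10), against 11.5% and 12% of all genes. The log2 fold change was above 0 for 37 genes and below 0 for 16, with a median of 0.21 against 0.01 over all genes. The value of this median depended on the scaling, and the median over all genes moved with it. With library totals alone the medians were 0.02 for the list and -0.19 over all genes, so the list still lay above. On the per-length log2(TPM + 1) scale they were -0.11 and -0.10, and the list did not lie above.

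**Figure D1:**
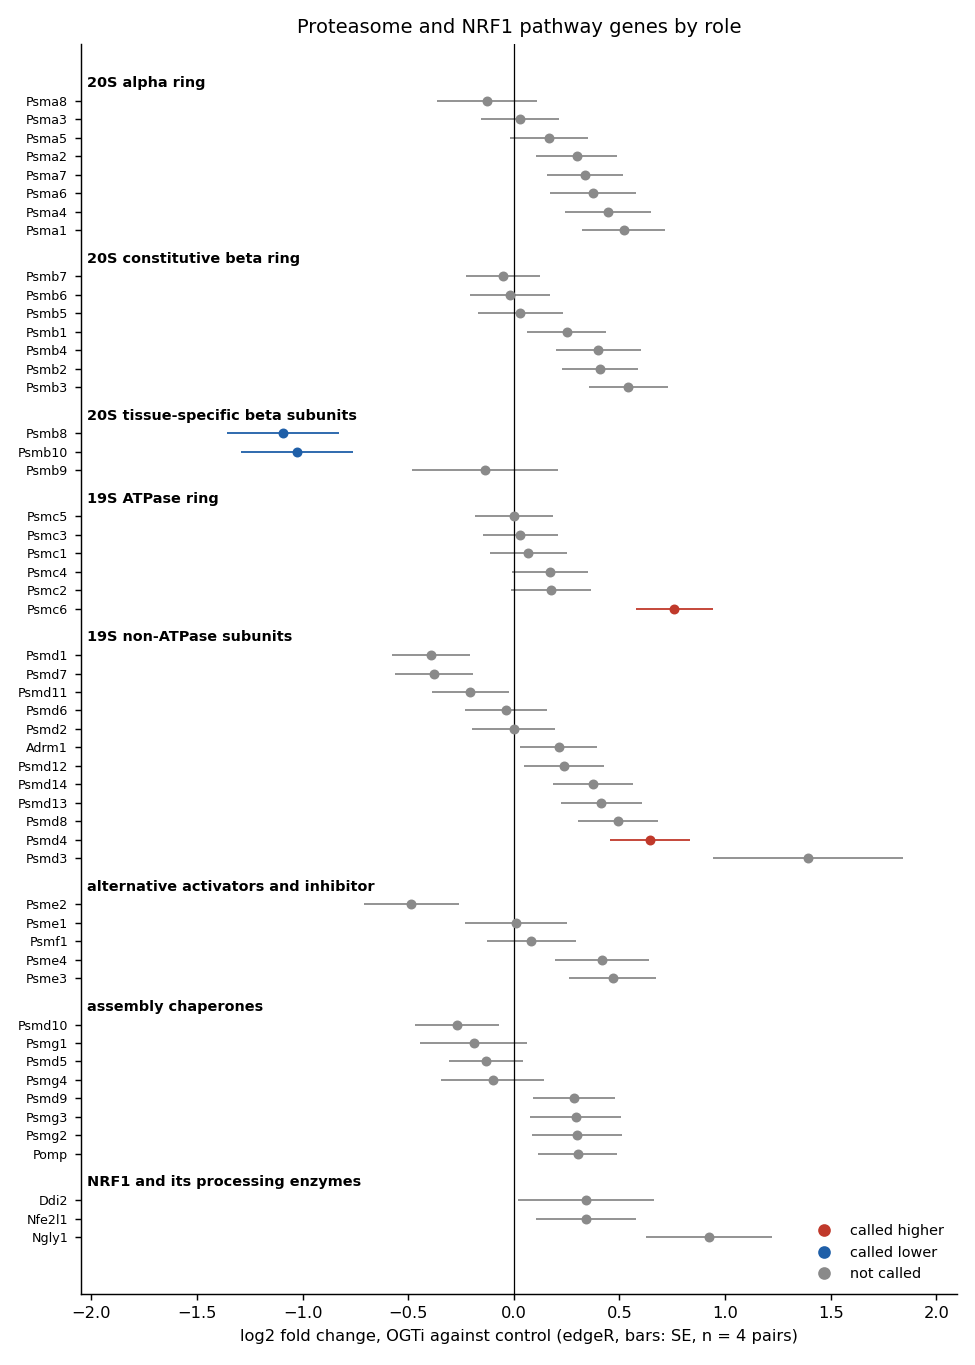
Log2 fold change of OGTi against control (horizontal axis, edgeR) for each gene, grouped by role, with bars giving the SE from the edgeR fit (n = 4 pairs), not the spread of the pairs. Psmc6 and Psmd4 (red) were called higher, Psmb8 and Psmb10 (blue) lower, and Psmb11, with very few counts, is not drawn.

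The 4 genes called lie on 4 chromosomes. Their promoters are shown because they are the only ones of the list whose transcripts passed the test. In GRCm39, the build of the files, the GENCODE annotation places Psmc6 at chr14:45567215-45587169 (plus strand), Psmd4 at chr3:94937765-94949925 (minus strand), Psmb8 at chr17:34416690-34420428 (plus strand) and Psmb10 at chr8:106662362-106665077 (minus strand). The windows below come from RefSeq on another build, GRCm38.p6, and run from 250 bases before to 50 bases after an annotated gene start, 5′ to 3′ on the gene's strand. They are chr14:45329574-45329873 for Psmc6, chr3:95042565-95042864 for Psmd4, chr17:34197945-34198244 for Psmb8 and chr8:105938343-105938642 for Psmb10. Capitals mark matches to any of 3 motifs, searched on both strands.
Psmc6: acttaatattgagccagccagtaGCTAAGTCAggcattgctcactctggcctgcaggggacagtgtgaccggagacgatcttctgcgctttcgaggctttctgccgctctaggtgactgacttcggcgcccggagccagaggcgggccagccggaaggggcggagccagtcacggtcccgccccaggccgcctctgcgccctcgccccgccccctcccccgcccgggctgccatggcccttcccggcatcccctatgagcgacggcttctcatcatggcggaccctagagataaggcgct
Psmd4: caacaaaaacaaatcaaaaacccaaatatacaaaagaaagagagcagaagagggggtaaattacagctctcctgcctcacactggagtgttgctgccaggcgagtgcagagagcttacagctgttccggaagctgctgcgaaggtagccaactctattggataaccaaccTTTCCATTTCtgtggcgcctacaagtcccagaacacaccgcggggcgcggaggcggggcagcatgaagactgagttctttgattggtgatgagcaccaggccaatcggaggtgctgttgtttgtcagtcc
Psmb8: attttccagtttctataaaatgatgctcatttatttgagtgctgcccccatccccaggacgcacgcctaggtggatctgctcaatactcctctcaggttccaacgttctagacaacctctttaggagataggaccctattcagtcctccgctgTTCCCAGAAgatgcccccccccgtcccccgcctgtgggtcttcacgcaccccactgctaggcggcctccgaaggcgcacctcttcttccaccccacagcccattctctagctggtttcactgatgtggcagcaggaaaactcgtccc
Psmb10: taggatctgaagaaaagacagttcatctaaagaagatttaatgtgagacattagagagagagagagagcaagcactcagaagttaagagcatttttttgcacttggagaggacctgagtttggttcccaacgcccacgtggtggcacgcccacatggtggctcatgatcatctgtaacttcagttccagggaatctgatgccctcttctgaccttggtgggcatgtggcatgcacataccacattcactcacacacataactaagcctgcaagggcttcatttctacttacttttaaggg
The motif TGACNNNGC, a core of the antioxidant response element that overlaps in part with AP-1 motifs, lay in the Psmc6 window on the opposite strand. The motif GAAA, any 2 bases, GAAA, a core of the interferon-stimulated response element, lay in the Psmd4 window on the opposite strand. The motif TTCNNNGAA, a palindromic core of the gamma-activated sequence, lay in the Psmb8 window. The Psmb10 window held none of these letters.

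A window was found for 45 of the 53 genes. TGACNNNGC occurred in 7 of the 45 genes (15.6%: Adrm1, Psmb5, Psmb6, Psmc6, Psmd12, Psmd9 and Psme4), against 14.0% of 27025 genes with windows of this length. The interferon-stimulated response element core occurred in 5 (11.1%: Psmb3, Psmd4, Psmd9, Psme1 and Psmg4), against 3.99%. TTCNNNGAA occurred in 3 (6.67%: Psmb8, Psmd2 and Psmg1), against 9.55%. These are matches of letters, not measured binding sites.

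In the 20S core, the alpha ring genes gave no call. Their 8 log2 fold changes had a median of 0.32 and ran from -0.13 ± 0.24 (SE) for Psma8, a testis-enriched alpha subunit that resembles Psma7, to 0.52 ± 0.20 for Psma1, and 7 of them lay above 0. Psma1 was higher in 4 of 4 pairs, with an adjusted p of 0.0955 (edgeR). Psma7 was the only alpha gene whose groups did not overlap, at 10659 scaled counts in control and 13582 in OGTi on average, with an adjusted p of 0.231.

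The 7 constitutive beta ring genes likewise gave no call, with a median of 0.25 and 5 values above 0. The catalytic subunits stood near 0. Psmb5, the chymotrypsin-like subunit, had 7532, 9679, 7309 and 9027 scaled counts in control replicates 1 to 4 and 11032, 8155, 7236 and 8070 in OGTi. Psmb6, the caspase-like subunit, had 13651, 13099, 11993 and 11476 in control and 13806, 11251, 15303 and 9812 in OGTi. Psmb7, the trypsin-like subunit, had 12725, 11314, 11495 and 12180 in control and 12697, 10581, 11559 and 11234 in OGTi. The groups overlapped for all 3 genes, and their log2 fold changes were 0.03 ± 0.20, -0.02 ± 0.19 and -0.05 ± 0.17 (SE, n = 4 pairs), with adjusted p of 0.940, 0.959 and 0.878 (edgeR). The highest value of the ring was that of Psmb3, a structural subunit with a log2 fold change of 0.54 ± 0.19 and an adjusted p of 0.0713, whose groups did not overlap.

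The inducible beta subunits Psmb8 and Psmb10 fell while Psmb9 did not pass the test. Psmb8, which replaces Psmb5, had 1475, 1204, 1791 and 2596 scaled counts in control replicates 1 to 4 and 1150, 667.8, 604.7 and 860.3 in OGTi. Each OGTi library lay below every control library, and the log2 fold change was -1.09 ± 0.26 (adjusted p = 0.0173, edgeR). The 4 pairs gave -0.36, -0.85, -1.57 and -1.59. Psmb10, which replaces Psmb7, had 750.3, 836.3, 1006 and 1175 scaled counts in control and 619.6, 452.3, 388.4 and 395.1 in OGTi. The groups again did not overlap, and the log2 fold change was -1.03 ± 0.27 (adjusted p = 0.0234). In both genes the difference was smallest in pair 1 and larger in pairs 3 and 4. The call of Psmb8 was lost without pair 3 (log2 fold change -0.93, adjusted p = 0.105) and without pair 4 (-0.91, 0.0882). That of Psmb10 was lost without pair 2 (-1.05, 0.0587), pair 3 (-0.91, 0.126) or pair 4 (-0.83, 0.110). Over 13 alternative fits the adjusted p ran from 0.00137 to 0.105 for Psmb8 and from 0.00367 to 0.127 for Psmb10.

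Psmb9, which replaces Psmb6, was much scarcer, with 110.1, 137.2, 122.5 and 202.3 scaled counts in control and 204.8, 155.2, 66.21 and 120.6 in OGTi. It was higher in pairs 1 and 2 and lower in pairs 3 and 4, and its log2 fold change was -0.14 ± 0.35 (adjusted p = 0.837, edgeR). The gene (chr17:34400960-34406738, minus strand, GRCm39) overlaps Tap1 on the opposite strand, and the study's read counting used strand. Psmb11, the thymus-specific beta subunit, had 1, 7, 1 and 2 raw counts in control and 10, 4, 12 and 9 in OGTi, too few for a fold change.

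**Figure D2:**
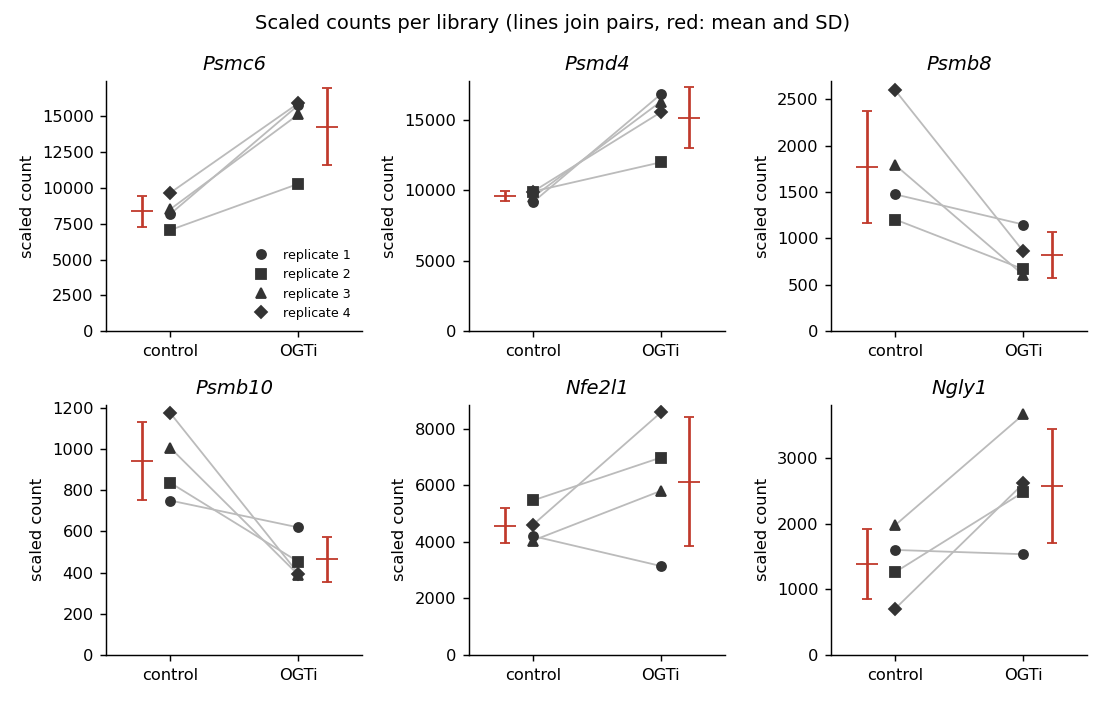
Scaled counts (vertical axes, from 0) of 6 genes in each of the 8 libraries, with grey lines joining the libraries of a pair and red bars giving the mean and SD of 4. OGTi libraries lie above all control libraries for Psmc6 and Psmd4 and below them for Psmb8 and Psmb10, while the groups overlap for Nfe2l1 and Ngly1.

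Each inducible subunit was also set against the constitutive subunit it replaces, within each library and per length, so that the scaling between libraries drops out. Psmb8 made up 11.3%, 7.42%, 13.6% and 15.6% of the summed TPM of Psmb8 and Psmb5 in control replicates 1 to 4, and 6.30%, 5.01%, 5.11% and 6.44% in OGTi. The share was 12.0% ± 3.53 in control and 5.72% ± 0.761 in OGTi (SD, n = 4), lower in 4 of 4 pairs. Psmb10 made up 4.69% ± 0.917 of Psmb10 and Psmb7 in control and 2.43% ± 0.429 in OGTi, lower in 4 of 4 pairs. Psmb9 made up 1.26% ± 0.437 of Psmb9 and Psmb6 in control and 1.24% ± 0.505 in OGTi, lower in 2 of 4 pairs. The log2 ratio of inducible to constitutive subunit differed by -1.12 ± 0.44 (SD, n = 4 pairs) for Psmb8, by -0.98 ± 0.56 for Psmb10 and by -0.10 ± 0.92 for Psmb9. A two-sided exact sign-flip permutation test over pairs gave p = 0.125 for Psmb8, 0.125 for Psmb10 and 0.875 for Psmb9, or 0.188, 0.188 and 0.875 after adjustment over the 3 ratios. With 4 pairs the smallest p this test allows is 0.125.

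**Figure D3:**
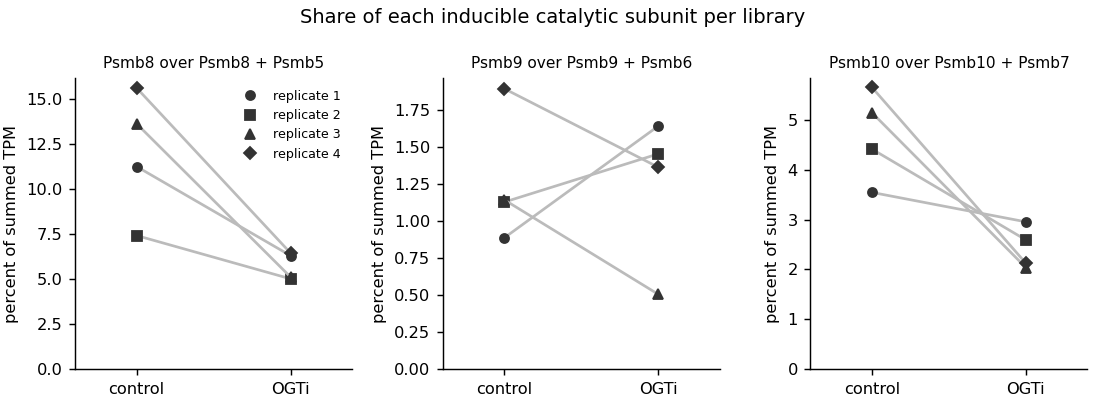
Share of each inducible catalytic subunit in the summed TPM of itself and its constitutive partner (vertical axes, percent, from 0) in each library, with lines joining pairs. The Psmb8 and Psmb10 shares are lower in OGTi in every pair, and the Psmb9 share moves up in pairs 1 and 2 and down in pairs 3 and 4.

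In the 19S cap, Psmc6 was the only ATPase gene called. Psmc6 encodes a subunit of the ring that unfolds substrates, and had 8185, 7066, 8519 and 9665 scaled counts in control and 15786, 10291, 15139 and 15920 in OGTi. All OGTi libraries exceeded all control libraries, with replicate 2 the lowest of each group, and the log2 fold change was 0.76 ± 0.18 (adjusted p = 0.0166, edgeR). The call was lost without pair 3 (0.74, adjusted p = 0.0909) and held under the other 12 alternative fits at the same threshold of 0.05, with a smaller value of 0.44 on the log2(TPM + 1) scale. The other 5 ATPase genes lay between 0.00 for Psmc5 and 0.18 for Psmc2, and the median of the ring was 0.12.

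Psmd4 was the only gene called among 12 non-ATPase genes. It encodes a receptor for ubiquitin chains and had 9142, 9905, 9509 and 9895 scaled counts in control and 16813, 11982, 16291 and 15535 in OGTi. The groups did not overlap and the control libraries were close together, and the log2 fold change was 0.65 ± 0.19 (adjusted p = 0.0389, edgeR). This call was the least stable of the 4, as it held under 7 of 13 alternative fits at the same threshold. It was lost without pair 1 (log2 fold change 0.57, adjusted p = 0.0583), pair 3 (0.60, 0.171) or pair 4 (0.66, 0.0969), where the size of the change stayed close to 0.65. It was also lost with library totals alone (0.45, 0.109) and on the log2(TPM + 1) scale (0.32, 0.0933), where the change itself was smaller. Adrm1, another ubiquitin receptor, had 8872, 8590, 9609 and 10296 scaled counts in control and 11516, 8359, 12379 and 11378 in OGTi. Its groups overlapped and its log2 fold change was 0.21 ± 0.18 (adjusted p = 0.478).

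The remaining non-ATPase genes ran from -0.39 ± 0.19 for Psmd1, a large scaffold subunit, to 1.39 ± 0.45 for Psmd3, and the median of the 12 was 0.22. Psmd3 varied most between libraries, with 1428, 6756, 2271 and 1046 scaled counts in control and 8018, 4363, 9458 and 2842 in OGTi. Control replicate 2 stood above 2 of the OGTi libraries, pair 2 alone was lower, and the adjusted p was 0.0566 (edgeR). Psmd3 was called higher in 4 of 13 alternative fits, with log2 fold changes from 0.99 to 2.02 and adjusted p from 0.000276 to 0.211. Psmd1 and Psmd7, a partner of the deubiquitinase subunit Psmd14, were lower in 4 of 4 pairs without being called, at -0.39 ± 0.19 and -0.38 ± 0.18 (adjusted p = 0.178 and 0.190). With limma-trend on log2(TPM + 1), both were called lower, together with Psmb8, Psmb10, Psmd10, Psmd11 and Psme2, and Psmc6 was the only gene of the 53 called higher. These 7 lower calls and 1 higher call stand against 17.3% and 5.99% of all genes by that test.

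Among the caps that replace the 19S particle, Psme3 and Psme4 lay above 0 and Psme2 below 0, without a call. Psme1 and Psme2 form the interferon-inducible PA28 cap. Psme1 had 2017, 2082, 2339 and 2798 scaled counts in control and 3344, 2209, 1860 and 2080 in OGTi, with overlapping groups and a log2 fold change of 0.01 ± 0.24 (adjusted p = 0.981, edgeR). Psme2 had 4811, 4296, 5069 and 5683 in control and 4944, 3405, 3341 and 2756 in OGTi, lower in 3 of 4 pairs, with a log2 fold change of -0.48 ± 0.22 (adjusted p = 0.167). Its near-identical copy Psme2b was called lower, at -0.90 ± 0.23 (adjusted p = 0.0233), and the division of reads between the 2 copies is uncertain.

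Psme3, the nuclear PA28 gamma, had 817.3, 644.6, 780.9 and 700.4 scaled counts in control and 1151, 845.4, 1145 and 944.2 in OGTi. Psme4, the PA200 cap, had 1112, 965.6, 1055 and 1042 in control and 1241, 1798, 1483 and 1139 in OGTi. The groups did not overlap for either gene, the log2 fold changes were 0.47 ± 0.20 and 0.42 ± 0.22, and the adjusted p were 0.148 and 0.230 (edgeR). Psmf1, the inhibitor PI31, was at 0.08 ± 0.21. Per length, the 5 genes of this group summed to 609 ± 71.9 TPM in control and 409 ± 64.0 in OGTi (SD, n = 4), and the 4 libraries of each group did not overlap. Psme2, whose reads may be shared with Psme2b, made up most of that sum and of its difference (392.2 TPM in control and 225.1 in OGTi on average), whereas Psme3 and Psme4 averaged 13.2 and 8.47 TPM in control and 14.5 and 9.33 in OGTi. No other role group but the tissue-specific beta subunits, at 142 ± 41.8 and 56.8 ± 11.1 TPM, separated the groups without overlap.

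None of the 8 assembly chaperone genes was called. Their median was 0.09, from -0.27 ± 0.20 for Psmd10, a 19S chaperone, to 0.30 ± 0.19 for Pomp, which matures the 20S core. Pomp had 8548, 7196, 7850 and 7664 scaled counts in control and 11851, 8579, 10853 and 7758 in OGTi, higher in 4 of 4 pairs but overlapping between groups (adjusted p = 0.299, edgeR).

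NRF1 itself and its processing enzymes were not called either. Nfe2l1 (chr11:96705767-96720813, minus strand, GRCm39) had 4209, 5469, 4049 and 4604 scaled counts in control and 3148, 6990, 5811 and 8588 in OGTi. OGTi replicate 1 was the lowest of all 8 libraries, the other 3 pairs were higher in OGTi, and the log2 fold change was 0.34 ± 0.24 (adjusted p = 0.366, edgeR). Ngly1, the glycanase (chr14:6157630-6220506, minus strand), had 1598, 1261, 1977 and 705.3 scaled counts in control and 1533, 2479, 3661 and 2610 in OGTi. It was higher in 3 of 4 pairs, with a log2 fold change of 0.92 ± 0.30 (adjusted p = 0.0576). Ddi2, the protease (chr4:141404860-141450777, minus strand), had 348.6, 616.5, 284.5 and 166.7 scaled counts in control and 290.9, 446.7, 505.4 and 406.6 in OGTi. It was lower in pairs 1 and 2 and higher in pairs 3 and 4, with a log2 fold change of 0.34 ± 0.32 (adjusted p = 0.520). Over 13 alternative fits, Nfe2l1 was called in 1 (log2 fold changes from 0.02 to 0.59), Ngly1 in 5 (0.58 to 1.25) and Ddi2 in 0 (0.00 to 0.65).

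Levels are compared between genes on the TPM scale. In control libraries the highest mean was that of Psmb3 (1472 TPM), followed by Psmb2 (919), Psmb7 (900.1) and Psmd8 (824.6), and the lowest apart from Psmb11 was that of Ddi2 (5.20). Constitutive subunits far exceeded inducible ones, with Psmb5, Psmb6 and Psmb7 at 640, 803 and 900.1 TPM and Psmb8, Psmb9 and Psmb10 at 87.1, 10.1 and 44.3. The 53 genes summed to 18791 ± 657 TPM in control and 17623 ± 978 in OGTi (SD, n = 4), and the groups overlapped. They took 1.12% to 1.37% of the expected counts of a library.

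The genes did not move together in every pair. Their median log2 difference of OGTi minus control was 0.38 in pair 1, 0.00 in pair 2, 0.37 in pair 3 and 0.06 in pair 4, and 41, 26, 39 and 29 of the 53 were higher in OGTi. In 18 genes all 4 pairs were higher and in 6 all 4 were lower, against 19.8% and 22% of all genes tested. The differences also shifted with transcript length. The 53 genes are short, with a median length of 1429 bases against 2859 for all genes tested, and a smooth trend of counts on log2 length was therefore removed per library as an alternative. The medians of the pairs then became 0.01, 0.08, 0.36 and 0.19, against 0.09, 0.04, 0.04 and 0.23 over all genes, so that pair 3 alone stood well above the transcriptome.

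**Figure D4:**
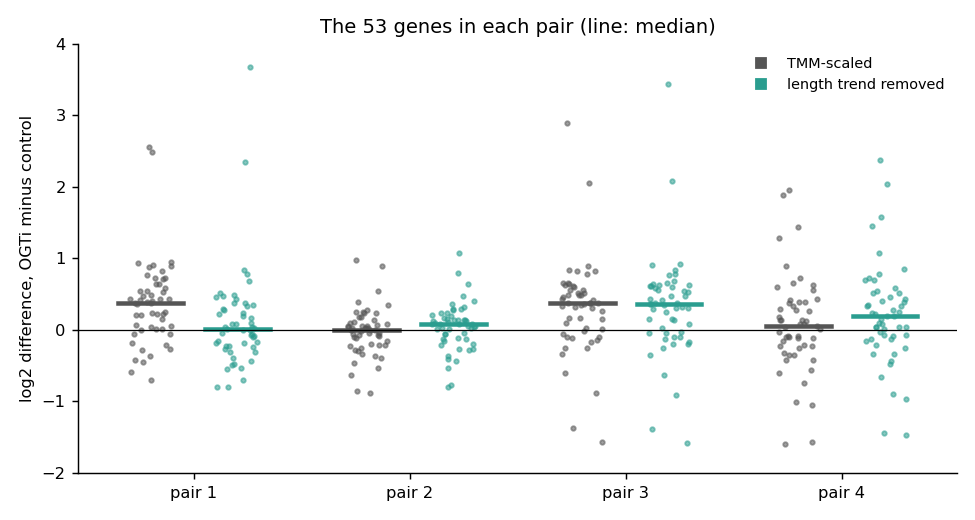
Log2 difference of OGTi minus control (vertical axis) of each of the 53 genes in each pair, as scaled by TMM (grey) and after removal of the length trend (green), with lines at the medians. The median of pair 1 moves from 0.38 to 0.01, while that of pair 3 stays near 0.37.

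With the length trend removed, 6 of the 53 genes were called higher and 3 lower, against 10.6% and 9.81% of all genes, and the median was 0.17 against 0.10 over all genes. The 4 calls above were kept. Nfe2l1 (0.58, adjusted p = 0.0495), Ngly1 (1.02, 0.0459), Psme3 (0.61, 0.0331) and Psme4 (0.67, 0.0274) joined the higher side, and Psme2 (-0.59, 0.0346) joined the lower side. DESeq2 called 7 of the 53 genes higher (Ngly1, Psma1, Psmb3, Psmc6, Psmd3, Psmd4 and Psme3) and 2 lower (Psmb8 and Psmb10), against 13.8% and 14.4% of the 17253 genes to which it gave an adjusted p.

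Genes that work with the proteasome or with NRF1 were taken in 5 related lists, whose calls stand against 8.13% of all genes called higher and 10.2% called lower. Of 28 genes for ubiquitin, shuttle factors and associated proteins, 6 rose and 1 (Psme2b) fell, with a median log2 fold change of 0.18 (0.35 with the length trend removed). Ubb, a polyubiquitin gene, rose from 120646 ± 11215 to 335248 ± 164464 scaled counts (log2 fold change 1.34 ± 0.25, adjusted p = 0.00503, edgeR). Zfand2a, an arsenite-inducible proteasome-binding protein also called AIRAP, rose by 1.45 ± 0.27 (adjusted p = 0.00475), and Zfand5, a related zinc finger protein, by 1.24 ± 0.30 (adjusted p = 0.0173). Faf1 (1.02) and Nploc4 (0.72), which both work with the segregase p97, also rose.

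Of 14 genes for NRF1 partners and turnover, 4 rose and 1 fell, with a median of 0.21 (0.42 with the length trend removed). Hcfc1, the scaffold partner of OGT, fell from 2987 ± 678 to 1350 ± 260.1 scaled counts (log2 fold change -1.14 ± 0.24, adjusted p = 0.00847, edgeR). The small MAF genes rose, Mafg by 0.85 ± 0.20 (adjusted p = 0.0164), Mafk by 0.90 ± 0.25 (0.0314) and Maff by 1.15 ± 0.32 (0.0332). Bach1, a repressor that competes at antioxidant response elements, rose by 1.13 ± 0.29 (0.0240). Ogt, the gene of the inhibited enzyme, was at -0.16 ± 0.24 (adjusted p = 0.714), and Nfe2l2, which encodes NRF2, at 0.22 ± 0.18 (0.458).

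Of 11 genes for interferon-gamma signalling and antigen processing, 3 fell and 1 rose, with a median of -0.62 (-0.39 with the length trend removed). The transcription factor Irf1 (-1.44 ± 0.29, adjusted p = 0.00733, edgeR) and the peptide transporter subunit Tap2 (-1.10 ± 0.29, 0.0244) were among those that fell, as did Psmb8 and Psmb10 of the proteasome list. Tap1, the neighbour of Psmb9, was at -0.94 ± 0.31 without a call (adjusted p = 0.0639). H2-D1, a class I heavy chain, rose by 0.57 ± 0.17 (adjusted p = 0.0474).

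Of 10 genes listed as antioxidant response element genes, 7 rose and none fell, with a median of 1.67 (1.77 with the length trend removed) against 0.21 for the proteasome list (0.17). They included the sulfiredoxin Srxn1 (3.53 ± 0.21, adjusted p = 3.73e-05, edgeR), the quinone reductase Nqo1 (2.27 ± 0.20, 0.000220), the haem oxygenase Hmox1 (2.68 ± 0.25, 0.000277), the glutathione synthesis gene Gclc (1.76 ± 0.22, 0.000843) and the cystine transporter Slc7a11 (1.67 ± 0.31, 0.00518). Of 8 aggresome and heat shock genes, 7 rose, with a median of 2.36 (2.54 with the length trend removed). They included Hspa1a (4.90 ± 0.25, adjusted p = 2.49e-05) and Hspa1b (5.03 ± 0.26, 2.49e-05), near-identical copies whose reads may be divided unevenly, Dnajb1 (2.73 ± 0.34, 0.000779), Sqstm1 (1.48 ± 0.21, 0.00155) and Bag3 (1.84 ± 0.35, 0.00555). Hdac6, the gene of that list that did not rise, was at -1.04 ± 0.34 without a call (adjusted p = 0.0618, edgeR). Its OGTi libraries lay below all control libraries. The lists differ in size and level, and the difference between their medians was not tested.

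**Figure D5:**
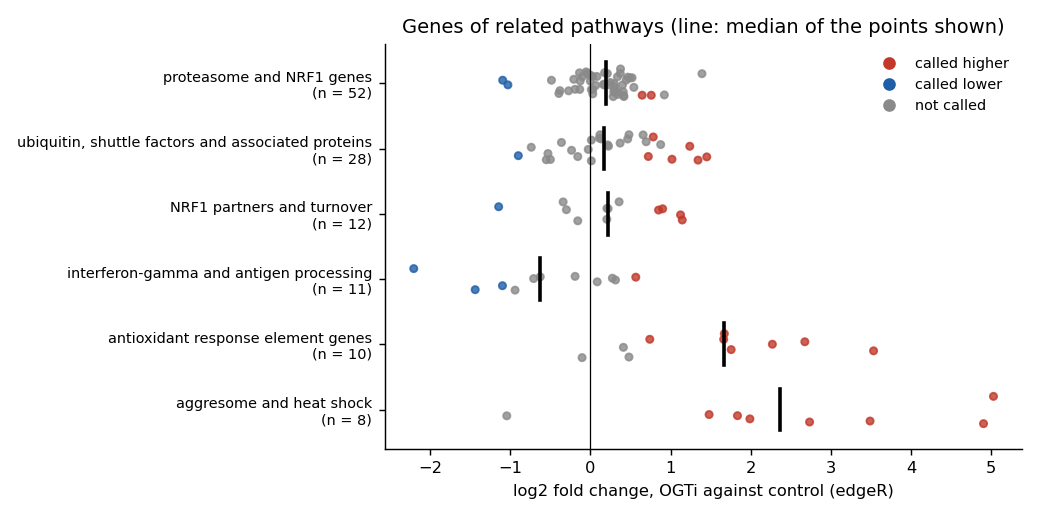
Log2 fold change of OGTi against control (horizontal axis, edgeR) of each gene in the proteasome list and 5 related lists, coloured by call, with black lines at the median of the points shown. Psmb11, Nfe2 and Nfe2l3, with very few counts, are not drawn. Most proteasome genes lie within 0.6 of 0, while 7 of 10 antioxidant response element genes and 7 of 8 aggresome and heat shock genes are called higher.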

How the data were processed

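According to labels and methods, polyadenylated RNA was sequenced in paired-end, stranded libraries. The authors aligned reads with Bowtie2 2.3.5.1 to mm39 (GRCm39) and counted them by strand with RSEM 1.3.1, giving one table of expected counts and TPM per library. A GENCODE annotation is named, whereas the deposited transcript identifiers are RefSeq ones. The deposited expected counts were fractional in 5 of 424 values of the 53 genes, so how multiply mapped reads were divided is unclear. The authors' DESeq2 1.36.0 table (fold changes, p-values and whole-number counts) was not used.

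Groups and replicate numbers came from sample titles. Expected counts were rounded and tested with edgeR 4.0.16 in R 4.3.3 (glmQLFit, glmQLFTest, TMM, genes with a total of at least 10 counts), with Benjamini-Hochberg adjustment over all genes tested and calls at 0.05. The replicate number was a block because the study's methods pair treated and control samples of the same replicate. Deviations of same-numbered samples correlated at 0.0835 to 0.289, and those of differently numbered samples at -0.274 to 0.183. SE is the log2 fold change divided by the root of F. The scripts were tested on simulated data, which varied less between libraries than these data and held no length trend.

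Alternatives used DESeq2 1.42.0, limma 3.58.1 (limma-trend on log2(TPM + 1) and log2(TPM + 0.1)), other scalings and filters, a per-library lowess trend on length (span 0.4), an adjusted p of 0.01 and removal of each pair. Per-library values were printed for Nfe2l1, Ddi2, Ngly1, Pomp, Adrm1, the catalytic and inducible beta subunits, Psme1 to Psme4 and any other gene called, and others by the highest and lowest of each role. Values of Psmd3 were added after they were seen, as were remarks on Psma7, Psmd7, Psmb11 and Psmf1. From related lists, up to 5 called genes of lowest p were named. Faf1, Nploc4, Psme2b, Tap1, Ogt, Nfe2l2, Hdac6, genes that gained a call with the length trend removed and the marker genes were added to these. A few of the named-gene results are not reported here. The rule for the 53 genes uses symbols alone, but this rule and the lists were chosen with earlier results of these data known. Of 29 ubiquitin-related genes listed, 28 were matched. Promoter windows came from RefSeq (GRCm38.p6), gene positions from GENCODE (GRCm39). Per-sample columns that were left aside numbered 0.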

Additional observations from a re-analysis of the deposited data

Results flagged for a closer look

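Among 106 groups of 4 values examined (each gene in each treatment group), 2 held a library far from the other 3, where chance alone gives about 1 in 20. For Psmc6 it was OGTi replicate 2, with 10291 scaled counts where the other OGTi values ran from 15139 to 15920. For Psmd5, a 19S chaperone, it was OGTi replicate 4, with 6278 scaled counts where the others ran from 10951 to 11090. Its control library of replicate 4 was also the lowest of its group at 7243.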

How the results depend on the processing

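The calls of the proteasome list rest on few genes near the threshold. Against 2 genes called higher, DESeq2 gave 7, upper-quartile scaling 5, no low-count filter 4, removal of the length trend 6, library totals alone 1, either TPM scale 1, an adjusted p of 0.01 gave 0, and leaving out a pair 0 to 3. Against 2 called lower, both TPM scales gave 7, removal of the length trend 3, library totals alone 3, an adjusted p of 0.01 gave 0, and leaving out a pair 0 to 2. The count of 0 higher arose without pair 3, and that of 0 lower without pair 3 and without pair 4, fits with fewer samples. In the related lists, 25 genes were called higher (14 on either TPM scale, 14 at an adjusted p of 0.01, 15 to 25 without a pair) and 5 lower (9 with library totals alone, 8 without the filter, 9 and 10 on the TPM scales, 3 at an adjusted p of 0.01, 2 to 7 without a pair). Removal of the length trend lost none of these calls. It added Ecpas, Txnrd1, Pgd, Ubqln1 and Txnl1 on the higher side and Rps27a on the lower side. The median log2 fold change of the list, 0.21, was -0.11 on both TPM scales (all genes: -0.10 with a pseudocount of 1 and -0.24 with 0.1), 0.34 with upper-quartile scaling (all genes: 0.13), and 0.13 to 0.29 without a pair. The cause of these shifts was not tested. Without the replicate block that pairs the libraries, 2 genes were called higher and 2 lower, with a median of 0.22, and the block changed the call of none of the 53 genes. None of the genes called reversed direction under any alternative. The SE of the 52 log2 fold changes other than that of Psmb11 ran from 0.17 to 0.45, which sets the size of difference that could be called (biological coefficient of variation 0.342). Psmb11 had too few counts for a fold change.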
